A study of Mus musculus with 12 samples.

Results

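The OHT response of 3T9MycER fibroblasts under verteporfin was read from 4 of the 12 RNA-seq libraries of the series, 2 from cells given verteporfin and OHT (VP + OHT) and 2 from cells given verteporfin alone (VP). The members are all genes whose RPKM (reads scaled by exon length and by mapped reads) averaged 0.5 or more over these 4 libraries. This holds for 10823 of the 21520 genes kept after lost decimal signs in the deposited table had been restored. 3T9 cells are immortalized mouse embryonic fibroblasts. Every group carried the MycER transgene, a fusion of Myc to a hormone-binding domain that stays inactive until 4-hydroxytamoxifen (OHT) is added, and the labels name no line without it. Verteporfin, described as a YAP-TEAD inhibitor, was used at 20 µM for 8 h. OHT responses in 2 other settings served as references, DMSO + OHT against DMSO (the solvent) and Y27 + OHT against Y27 (50 µM of the ROCK inhibitor Y27632 for 8 h), with 2 libraries in each group. The labels give neither the dose nor the time of OHT, and do not say whether replicates were separate cultures. The design text describes quiescent, confluent cells, whereas the methods describe serum-starved subconfluent cultures. The p-values therefore measure only the spread between libraries, which may be technical.

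Myc is a transcription factor that pairs with Max on E-box sequences and is known for raising genes of ribosome assembly, nucleotide synthesis and the cell cycle, and for lowering a smaller set that includes cyclin-dependent kinase inhibitors. YAP is a coactivator held in check by the Hippo kinases and by low cytoskeletal tension, and it reaches DNA through the TEAD factors. Verteporfin is a porphyrin known to disturb the contact between YAP and TEAD. The comparison asks how much of the transcriptional response to MycER is seen in cells given verteporfin. How far YAP-TEAD was inhibited in these libraries was not tested.

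The 4 libraries held 26124435 to 30856488 mapped reads, of which 32.5% in each VP + OHT library, and 30.2% and 30.3% in the VP libraries, fell in the genes kept. Reads per exon base never passed 1.93 in any library, also in the most abundant genes: Actb, the cytoplasmic beta-actin, had 1.65 and 1.64 reads per base in the VP + OHT libraries, against 1.65 and 1.63 in the VP libraries. Counts near that limit have little room to differ, so changes of genes at 20 RPKM or more may be understated, which was not tested. Of 12 fibroblast markers, 8 reached a mean of 1 RPKM, among them Col1a1, Col3a1, Vim and Pdgfra, while Thy1, Fap and Lum stayed under 0.1. No epithelial, endothelial, adipocyte or muscle marker reached 1 RPKM. Of 11 macrophage markers measured, Cd68 and Cd14 did, and the summed level of the 11 was 12.3 and 10.3 RPKM in the VP + OHT libraries, against 9.45 and 9.23 RPKM in the VP libraries, with Lyz2 and Laptm5 at 0 in all 4. The part of these markers in the results was not tested.

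Addition of OHT under verteporfin changed 641 of the 10823 genes at an adjusted p under 0.05 (5.92%), with 580 higher (5.36%) and 61 lower (0.564%) in VP + OHT than in VP. All adjusted p-values come from limma on log2(RPKM + 1) with Benjamini-Hochberg adjustment over the 10823 genes, and a log2 change on that scale understates the change of genes with low RPKM. In bulk libraries fewer cells of a type and less RNA per cell cannot be told apart. The changes were small: the median was 0.37 on the log2 scale for rises and -0.38 for falls, 8 genes rose by more than 1 on the log2 scale and none fell by as much. Ranges of the 2 groups did not overlap for 5515 genes that were higher (51%) and 995 that were lower (9.19%) in VP + OHT. The median gene lay 0.08 above zero on the log2 scale, beside the larger share of reads in genes in both VP + OHT libraries. After scaling to the reads in genes the median was -0.0045 and the calls were 273 higher and 118 lower. Rises were thus 90.5% of the calls as deposited, 69.8% after scaling to reads in genes, 71.5% after median-ratio scaling and 64.4% after quantile normalization. The count also rested on each library, falling to 94 calls without VP replicate 2 and to 207 without VP replicate 1. Leaving out VP + OHT replicate 2 gave 110, and leaving out VP + OHT replicate 1 gave 175.

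Calls depended on expression level. Of 5058 genes with a mean of 5 to 20 RPKM, 351 rose (6.94%) and 14 fell, and of 989 genes at 0.5 to 1 RPKM, 16 rose (1.62%) and 3 fell. Of 1053 genes at 20 RPKM or more, 9 rose (0.855%) and 0 fell by limma, with 5 lower at an unadjusted p under 0.05 and 0 lower by the voom form of limma. The part of the limit on reads per base in that low share was not tested.

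**Figure D1:**
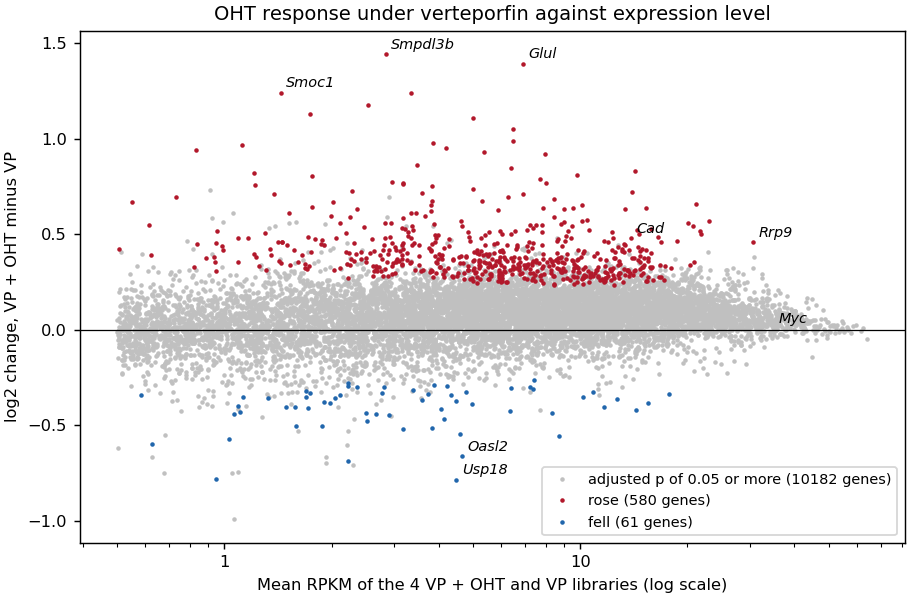
Each point is 1 of the 10823 genes, with its mean RPKM over the 4 VP + OHT and VP libraries (log scale) against its log2 change in VP + OHT relative to VP. Of the 580 genes that rose, 351 lie between 5 and 20 RPKM and 9 at 20 RPKM or more.

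The largest rises were in a phosphodiesterase, a glutamine enzyme and several signalling and membrane proteins. Smpdl3b, a lipid-modifying phosphodiesterase, had 4.81 and 4.41 RPKM in the VP + OHT libraries, against 1.16 and 0.974 RPKM in the VP libraries (log2 change 1.44 ± 0.08 (SE), adjusted p = 7.19e-06). The lowest VP + OHT library was thus above both VP libraries by several fold. The same order, at any size, was seen in 51% of all genes. Glul, the glutamine synthetase, had 10.4 and 10.5 RPKM in the VP + OHT libraries, against 3.55 and 3.19 RPKM in the VP libraries (log2 change 1.39 ± 0.09 (SE), adjusted p = 1.28e-05). Smoc1, a secreted calcium-binding matrix protein, had 2.56 and 2.3 RPKM in the VP + OHT libraries, against 0.51 and 0.394 RPKM in the VP libraries (log2 change 1.24 ± 0.08 (SE), adjusted p = 2.27e-05). None of these 3 genes had overlapping groups, and their calls held with any of the 8 libraries left out, the highest adjusted p being 0.000695. Ica1, which takes part in vesicle traffic, had 5.37 and 4.83 RPKM in the VP + OHT libraries, against 1.73 and 1.44 RPKM in the VP libraries (log2 change 1.24 ± 0.09 (SE), adjusted p = 2.58e-05). Cdca7l, a nuclear protein that binds Myc, had 3.8 and 4.01 RPKM in the VP + OHT libraries, against 1.17 and 1.17 RPKM in the VP libraries (log2 change 1.18 ± 0.07 (SE), adjusted p = 1.28e-05). Rragb, a Rag GTPase that carries amino acid signals to mTORC1, had 7.33 and 7.07 RPKM in the VP + OHT libraries, against 3.15 and 2.48 RPKM in the VP libraries (log2 change 1.11 ± 0.10 (SE), adjusted p = 0.000209). These 3 also held in every leave-out fit, as did Reep6, St6galnac4, Arhgdig, Pgm2l1 and Zc3h8, whose log2 changes were 1.13, 0.99, 0.98, 0.97 and 0.95. St6galnac4 encodes a sialyltransferase and Pgm2l1 an enzyme of sugar phosphate metabolism. In DMSO the log2 changes of the same genes were larger for Smpdl3b (2.15), St6galnac4 (1.82), Arhgdig (1.92) and Reep6 (1.75), and each of these differences passed the test (adjusted p = 0.00711, 0.00677, 0.00668 and 0.024). For Glul the response under verteporfin minus that in DMSO was 0.04 ± 0.12 (SE), adjusted p = 0.913. The small nucleolar RNA Snord11 was also among the 12 largest rises, on 17 and 16 reads in the VP + OHT libraries against 8 and 6 reads in the VP libraries. Its adjusted p of 0.0312 was lost when any 1 of the 4 verteporfin libraries was left out, where it reached 0.171.

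**Figure D2:**
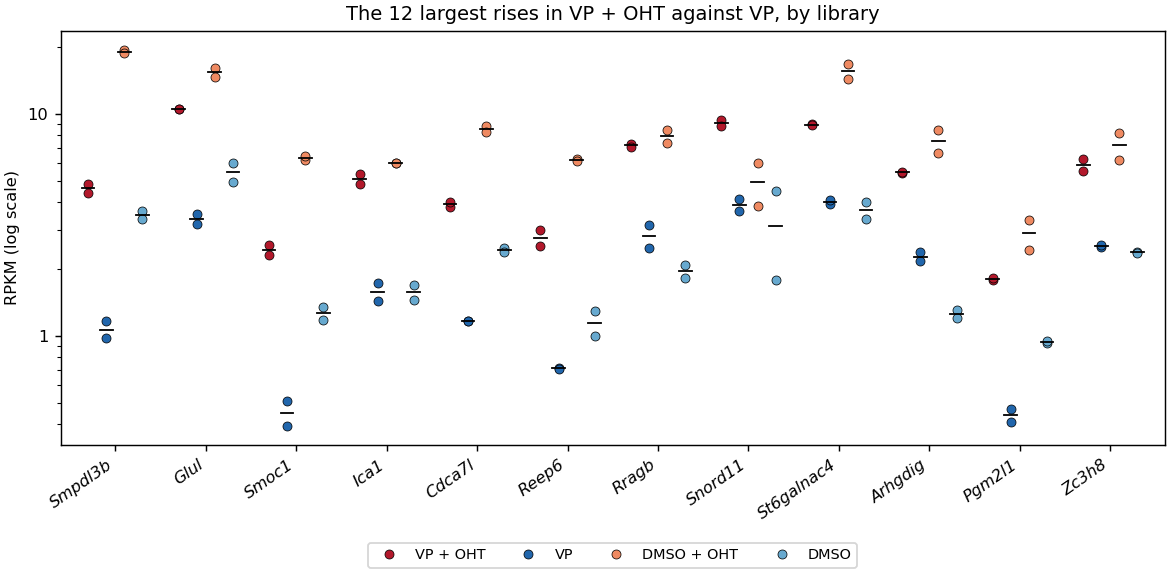
RPKM (log scale) of the 12 genes with the largest rises in VP + OHT against VP, with 1 point per library and a bar at the group mean, for VP + OHT, VP, DMSO + OHT and DMSO. For Smpdl3b the VP + OHT points lie at 4.81 and 4.41 RPKM and the VP points at 1.16 and 0.974 RPKM.

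Promoter windows of the largest rises were searched for the canonical E-box, the sequence Myc and Max bind, because the comparison is one of Myc activity. The windows run from 250 bases before to 50 bases after the start of each RefSeq transcript (build GRCm38.p6, whereas the RPKM values rest on build mm9). The E-box CACGTG, which reads the same on both strands, was present for 4 of the 8 genes among the 12 largest rises that had a window. It was present for 1028 of 8384 tested genes with a window (12.3%), 55 of 463 genes that rose (11.9%), 1 of 42 genes that fell (2.38%) and 8.09% of all genes with a window. The 4 windows follow, 5′ to 3′, with the E-boxes in capitals.
Smpdl3b, chr4:132757122-132757421, minus strand: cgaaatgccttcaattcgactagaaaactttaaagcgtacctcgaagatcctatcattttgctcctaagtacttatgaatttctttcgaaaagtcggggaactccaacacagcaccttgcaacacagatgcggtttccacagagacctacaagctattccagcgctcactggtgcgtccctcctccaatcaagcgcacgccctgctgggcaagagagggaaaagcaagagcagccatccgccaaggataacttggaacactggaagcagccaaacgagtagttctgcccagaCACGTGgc
Ica1, chr6:8778435-8778734, minus strand: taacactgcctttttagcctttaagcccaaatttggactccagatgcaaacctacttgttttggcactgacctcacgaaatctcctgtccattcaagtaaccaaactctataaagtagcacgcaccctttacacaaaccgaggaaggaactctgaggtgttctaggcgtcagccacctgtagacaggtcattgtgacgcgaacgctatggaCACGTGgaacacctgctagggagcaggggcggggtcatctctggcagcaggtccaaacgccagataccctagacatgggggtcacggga
Rragb, chrX:153139708-153140007, plus strand: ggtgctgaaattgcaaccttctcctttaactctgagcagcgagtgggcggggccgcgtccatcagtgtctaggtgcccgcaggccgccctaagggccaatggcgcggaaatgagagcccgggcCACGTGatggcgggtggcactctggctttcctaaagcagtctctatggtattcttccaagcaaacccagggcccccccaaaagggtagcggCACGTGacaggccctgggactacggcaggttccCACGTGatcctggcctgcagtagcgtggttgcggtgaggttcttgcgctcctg
Pgm2l1, chr7:100227357-100227656, plus strand: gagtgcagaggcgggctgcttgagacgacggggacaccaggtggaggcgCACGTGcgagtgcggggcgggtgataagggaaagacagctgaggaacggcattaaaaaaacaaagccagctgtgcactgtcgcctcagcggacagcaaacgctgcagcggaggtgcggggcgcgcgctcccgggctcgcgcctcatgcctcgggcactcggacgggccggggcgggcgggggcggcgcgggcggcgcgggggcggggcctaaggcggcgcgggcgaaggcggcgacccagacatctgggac
The E-box of Smpdl3b began 42 bases after the start site, that of Ica1 39 bases before it and that of Pgm2l1 201 bases before it. Rragb held 3 copies, the first 127 bases before the start. The share among genes that rose was close to that among all tested genes. The interferon-type motif, GAAA followed after any 2 bases by GAAA and searched on both strands, was found for 0 of the 6 genes with a window among the largest falls, for 5 of 42 genes that fell (11.9%) and for 3.63% of tested genes. The TEAD motif GGAATG, also searched on both strands, was found for 57 of 463 genes that rose (12.3%) and 14.1% of tested genes. A match here is only a run of letters and says nothing of binding.

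Genes of ribosome assembly rose under verteporfin at about the share of all genes. Of 62 members tested, 4 rose and 0 fell by limma, or 6.45% against rises of 5.36% over all genes. At an unadjusted p under 0.05, 23 were higher and 0 lower, and voom called 8 higher and 0 lower. The median log2 change was 0.17, beside 0.08 over all genes. Scaling to the reads in genes gave 1 rise and a median of 0.07 beside -0.0045 over all genes, median-ratio scaling gave 2 rises, and quantile normalization 3. Rrp9, which binds U3 small nucleolar RNA in pre-rRNA processing, had 34.9 and 36.1 RPKM in the VP + OHT libraries, against 23.6 and 27.7 RPKM in the VP libraries (log2 change 0.46 ± 0.12 (SE), adjusted p = 0.0429). Ncl, the abundant nucleolar protein nucleolin, had 17.3 and 17.8 RPKM in the VP + OHT libraries, against 13.6 and 14 RPKM in the VP libraries (log2 change 0.33 ± 0.07 (SE), adjusted p = 0.0261). Utp20, of the small-subunit processome, and Ebna1bp2, an assembly factor of the large subunit, had log2 changes of 0.29 and 0.28. Higher without overlap of the groups were 55 of the 62 members, and 51% of all genes. The groups did not overlap for any of the 4, yet 0 members passed when any 1 of the 4 verteporfin libraries was left out, with adjusted p up to 0.22 for Rrp9, 0.192 for Ncl, 0.222 for Utp20 and 0.309 for Ebna1bp2. The most abundant members, Nop56 and Npm1, had log2 changes of 0.17 and 0.04 (adjusted p = 0.367 and 0.874). Verteporfin alone had already set the list high: the median member lay at 17.6 and 18.2 RPKM in VP + OHT and 15.8 and 17.3 RPKM in VP, against 14.1 and 12.9 RPKM in DMSO + OHT and 9.5 and 8.67 RPKM in DMSO.

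RNA polymerase I and III subunits held 5 rises and 0 falls among 31 (limma, 19 higher and 0 lower at an unadjusted p under 0.05, 7 and 0 by voom), at a median log2 change of 0.20. The share of rises was 16.1%, against 5.36% over all genes. Scaling to the reads in genes, or by median ratios, gave 3 rises. Polr3g, an RNA polymerase III subunit typical of stem and growing cells, had 6.57 and 6.88 RPKM in the VP + OHT libraries, against 3.92 and 3.78 RPKM in the VP libraries (log2 change 0.67 ± 0.09 (SE), adjusted p = 0.00201). Its call held in every leave-out fit. The RNA polymerase I subunits Polr1b and Polr1e rose by 0.40 and 0.33 on the log2 scale, calls that were lost when any 1 of the 4 verteporfin libraries was left out (adjusted p up to 0.151 and 0.173), and each of these fits gave 2 rises in the list.

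Nucleotide and one-carbon synthesis was the list with the largest share of rises, 8 of 33 members, with 0 falls (limma, 16 higher and 0 lower at an unadjusted p under 0.05, 11 and 0 by voom) and a median log2 change of 0.16. That share was 24.2%, against rises of 5.36% over all genes, whose median log2 change was 0.08. Cad, the enzyme of the first steps of pyrimidine synthesis, had 16 and 16.6 RPKM in the VP + OHT libraries, against 11.3 and 11.6 RPKM in the VP libraries (log2 change 0.48 ± 0.07 (SE), adjusted p = 0.00494). Prps2, which makes phosphoribosyl pyrophosphate for purines and pyrimidines, had 4.04 and 4.3 RPKM in the VP + OHT libraries, against 2.81 and 2.41 RPKM in the VP libraries (log2 change 0.52 ± 0.09 (SE), adjusted p = 0.0091). Dctpp1, a pyrophosphatase that clears modified dCTP, had 9.66 and 10.6 RPKM in the VP + OHT libraries, against 6.27 and 7.89 RPKM in the VP libraries (log2 change 0.47 ± 0.10 (SE), adjusted p = 0.0197). Pfas, an enzyme of purine ring assembly, had 14 and 14.4 RPKM in the VP + OHT libraries, against 10.2 and 10.5 RPKM in the VP libraries (log2 change 0.42 ± 0.08 (SE), adjusted p = 0.013). The groups did not overlap for any of the 4, as for 25 of the 33 members and 51% of all genes on the higher side. The list's rises numbered 2 when either VP library was left out, 3 in the fit lacking VP + OHT replicate 1 and 0 in that lacking VP + OHT replicate 2. In this last fit the adjusted p of Cad was 0.058. The abundant members Impdh2 and Shmt2 had log2 changes of 0.15 and 0.11 (adjusted p = 0.453 and 0.556), and Nme1 one of 0.12 (adjusted p = 0.44).

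In polyamine and methionine metabolism 1 of 12 members rose (8.33%, against 5.36% of all genes). Sms, the spermine synthase, had 8.9 and 9.28 RPKM in the VP + OHT libraries, against 5.82 and 6.01 RPKM in the VP libraries (log2 change 0.55 ± 0.06 (SE), adjusted p = 0.000882), and its call held in every leave-out fit. Odc1, the rate-limiting ornithine decarboxylase, had 33.8 and 33.8 RPKM in the VP + OHT libraries, against 32.9 and 33.7 RPKM in the VP libraries (log2 change 0.02 ± 0.11 (SE), adjusted p = 0.934), levels at which changes may be understated. In glycolysis and glutamine metabolism 3 of 22 rose (13.6%, against 5.36% of all genes). These were Glul, the lactate transporter Slc16a1 (10.9 and 10.5 against 7.66 and 7.26 RPKM in VP + OHT against VP, log2 change 0.47) and the glutamine transporter Slc1a5 (9.18 and 9.07 against 6.65 and 6.26 RPKM, log2 change 0.44). The calls of both transporters were lost when any 1 of the 4 verteporfin libraries was left out, with adjusted p up to 0.133 and 0.133. The abundant glycolytic enzymes Pkm and Aldoa had log2 changes of 0.10 and 0.00 (adjusted p = 0.608 and 0.997).

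Cell cycle genes gave almost no calls. In DNA replication and the G1/S step 1 of 48 members rose and 0 fell (limma, 8 higher and 2 lower at an unadjusted p under 0.05, 2 and 1 by voom). The share of rises was 2.08%, beside 5.36% over all genes. Pold2, a subunit of DNA polymerase delta, had 24 and 24.1 RPKM in the VP + OHT libraries, against 15.3 and 16.7 RPKM in the VP libraries (log2 change 0.56 ± 0.09 (SE), adjusted p = 0.00918), a call lost without either VP library or VP + OHT replicate 2 (adjusted p up to 0.065). Ccne1, the G1/S cyclin E1, had 1.17 and 1.01 RPKM in the VP + OHT libraries, against 0.762 and 0.665 RPKM in the VP libraries (log2 change 0.29 ± 0.11 (SE), adjusted p = 0.13). Ccnd1, Ccnd2 and Cdk4, the D-type cyclins and their kinase, had log2 changes of 0.11, 0.18 and 0.03 (adjusted p = 0.535, 0.206 and 0.878). Of 21 mitosis genes 0 were called (limma, 0 higher and 3 lower at an unadjusted p under 0.05, 0 and 2 by voom).

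Protein synthesis and folding genes were also mostly below the threshold, as were all genes tested, of which 5.36% rose. Of 25 translation factors 0 rose (limma, 6 higher at an unadjusted p under 0.05, 2 by voom), and of 20 tRNA synthetases 0 rose (4 and 2). Among 22 chaperones 1 rose, the mitochondrial Trap1 (log2 change 0.25), and among 29 genes of the mitochondrial ribosome and import 2 rose, the import subunit Timm50 (0.32) and Tfb2m (0.31), a factor of mitochondrial transcription. These 3 calls were lost when any 1 of the 4 verteporfin libraries was left out, with adjusted p up to 0.258, 0.208 and 0.157. Circadian clock genes held 3 rises among 16 (18.8%, against 5.36% of all genes). Nr1d1 and Nr1d2, the REV-ERB nuclear receptors, had log2 changes of 0.48 and 0.38, and the clock output factor Dbp one of 0.48, from 1.37 and 1.51 RPKM in the VP + OHT libraries, against 0.657 and 0.844 RPKM in the VP libraries. The clock list had 2 rises without VP replicate 1 and 0 when any of the other 3 verteporfin libraries was left out.

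Of the 61 genes that fell, 14 were members of the interferon response list. Of 40 members of the interferon response list tested, 14 fell and 0 rose by limma, against falls of 0.564% over all genes tested. At an unadjusted p under 0.05, 25 were lower and 0 higher, and voom called 18 lower and 0 higher. The median log2 change was -0.24. Usp18, an ISG15 protease that restrains interferon receptor signalling, had 3.09 and 2.92 RPKM in the VP + OHT libraries, against 5 and 6.94 RPKM in the VP libraries (log2 change -0.79 ± 0.11 (SE), adjusted p = 0.00428). Oasl2, of the 2′-5′-oligoadenylate synthetase family, had 3.46 and 3.27 RPKM in the VP + OHT libraries, against 5.11 and 6.81 RPKM in the VP libraries (log2 change -0.66 ± 0.11 (SE), adjusted p = 0.00681). Both calls held in every leave-out fit, with adjusted p up to 0.0237 and 0.0457. Irf7, the transcription factor that amplifies type I interferon, had 6.89 and 6.74 RPKM in the VP + OHT libraries, against 9.08 and 12.1 RPKM in the VP libraries (log2 change -0.56 ± 0.11 (SE), adjusted p = 0.0175). Mx1, an antiviral GTPase, had 2.83 and 3.08 RPKM in the VP + OHT libraries, against 3.79 and 5.64 RPKM in the VP libraries (log2 change -0.51 ± 0.13 (SE), adjusted p = 0.0388). Cmpk2, a mitochondrial nucleotide kinase, had 1.16 and 1.13 RPKM in the VP + OHT libraries, against 1.81 and 2.28 RPKM in the VP libraries (log2 change -0.50 ± 0.09 (SE), adjusted p = 0.0116). Ifnb1, which encodes interferon beta itself, had 0.723 and 0.541 RPKM in the VP + OHT libraries, against 1.22 and 1.64 RPKM in the VP libraries (log2 change -0.57 ± 0.10 (SE), adjusted p = 0.0104). VP replicate 2 was the higher VP library in each of these, and in 37 of the 40 members, against 46.4% of all genes tested. Without VP replicate 2 only 2 members fell, and the same number fell when either VP + OHT library was left out. In the fit without VP replicate 1, 11 fell. The adjusted p reached 0.116 for Irf7, 0.209 for Mx1, 0.0887 for Cmpk2 and 0.0937 for Ifnb1 in such fits. The median log2 change stayed below zero in all 8, between -0.34 and -0.15. With a pseudocount of 0.1 in place of 1, 3 members fell, and with no filter on low values 0 did.

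These genes stood far higher under verteporfin than in DMSO. The summed level of the 40 members was 319 and 315 RPKM in the VP + OHT libraries and 351 and 410 RPKM in the VP libraries, against 73.6 to 89.0 RPKM in the 4 libraries with DMSO, and all 40 members were higher in VP than in DMSO at an adjusted p under 0.05. Of all genes tested, 67.8% differed between VP and DMSO, with 28.8% higher and 39% lower in VP. The 40 members were those of 48 measured that passed the filter on their level in the verteporfin libraries. Members low in these libraries could not enter, so the count of 40 is no test of the list. Usp18 had 0.0712 and 0.0391 RPKM in the DMSO + OHT libraries, against 0.127 and 0.0599 RPKM in the DMSO libraries. Oasl2 had 0.0804 and 0.0773 RPKM in the DMSO + OHT libraries, against 0.0953 and 0.113 RPKM in the DMSO libraries. Both genes passed the filter on low values through the verteporfin libraries, and at levels near 0.1 RPKM a response in DMSO could hardly be seen on the log2(RPKM + 1) scale, so no difference between the responses is given for them. Over the 40 members, OHT in DMSO gave 8 falls and 0 rises, where 10.1% of all genes fell. OHT with Y27 gave 6 falls and 1 rise, where 12% of all genes fell. The median member lay at 0.438 and 0.446 RPKM in the DMSO libraries. The abundant members Ifit3 and Irgm1 had log2 changes under verteporfin of -0.17 and -0.07 (adjusted p = 0.371 and 0.729).

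**Figure D3:**
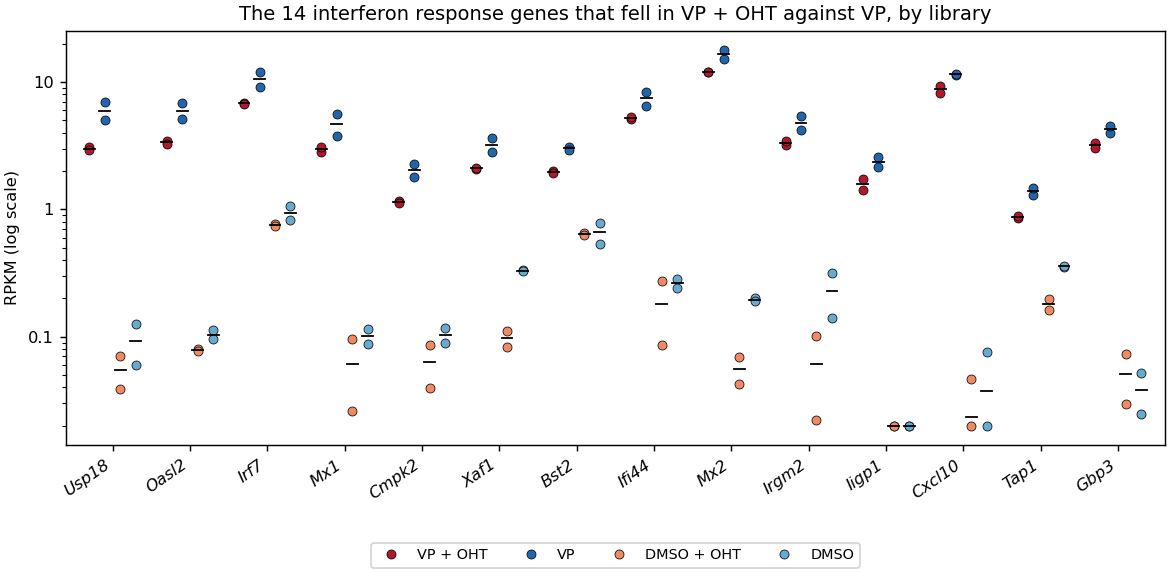
RPKM (log scale) of the 14 interferon response genes that fell in VP + OHT against VP, with 1 point per library and a bar at the group mean, for VP + OHT, VP, DMSO + OHT and DMSO, and values under 0.02 RPKM drawn at 0.02. Every VP + OHT point lies below both VP points of its gene, and the DMSO points lie lower still, near 0.1 RPKM for Usp18 and Oasl2.

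Most of the 61 falls lay outside the interferon response list, and only some of them are given here. Mgst2, a glutathione transferase of lipid mediator synthesis, had 0.355 and 0.236 RPKM in the VP + OHT libraries, against 0.935 and 0.975 RPKM in the VP libraries (log2 change -0.60 ± 0.10 (SE), adjusted p = 0.0102). Serpina3h, a secreted serine protease inhibitor, had 3.7 and 3.4 RPKM in the VP + OHT libraries, against 6.12 and 5.19 RPKM in the VP libraries (log2 change -0.55 ± 0.09 (SE), adjusted p = 0.00894). Cda, the cytidine deaminase, had 1.33 and 1.41 RPKM in the VP + OHT libraries, against 2.68 and 2.08 RPKM in the VP libraries (log2 change -0.51 ± 0.12 (SE), adjusted p = 0.0336). The call of Mgst2 was lost without either library numbered 2 of these groups (adjusted p up to 0.0811). The call of Serpina3h was lost without VP replicate 1 or without VP + OHT replicate 2 (up to 0.0763), and that of Cda when any 1 of the 4 verteporfin libraries was left out (up to 0.181). Trp53inp1, a p53-induced regulator of autophagy and cell death, fell as 1 of 19 p53 targets, of which 0 rose. Over all genes 0.564% fell. It had 4.27 and 4.07 RPKM in the VP + OHT libraries, against 5.86 and 5.7 RPKM in the VP libraries (log2 change -0.39 ± 0.09 (SE), adjusted p = 0.0301), and the call was lost when any 1 of the 4 verteporfin libraries was left out (up to 0.165). The 3 small RNA genes among the 12 largest falls rested on few reads in VP + OHT against VP. Mir760 had 1 and 2 reads against 6 and 4. Snord92 had 3 and 3 reads against 6 and 6. Mir466i had 9 and 8 reads against 14 and 13. The libraries were not stranded, so reads of such short genes and of the transcripts around them cannot be told apart.

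Genes of the YAP pathway gave few calls, as did all genes tested, of which 5.36% rose and 0.564% fell. Yap1 had 9.33 and 9.12 RPKM in the VP + OHT libraries, against 7.6 and 7.96 RPKM in the VP libraries (log2 change 0.22 ± 0.06 (SE), adjusted p = 0.0649). Wwtr1, which encodes the related coactivator TAZ, and Tead1 had log2 changes of 0.05 and 0.05 (adjusted p = 0.705 and 0.665). Of 28 YAP-TEAD targets 1 rose and 0 fell (limma, 3 higher and 1 lower at an unadjusted p under 0.05, 1 and 0 by voom), at a median log2 change of 0.07, beside 0.08 over all genes. The list's median turned to -0.03 after scaling to the reads in genes or quantile normalization and to -0.02 after median-ratio scaling. The member that rose, Wwc1, encodes KIBRA, an upstream activator of the Hippo kinases, and had 6.98 and 6.02 RPKM in the VP + OHT libraries, against 4.72 and 3.94 RPKM in the VP libraries (log2 change 0.49 ± 0.10 (SE), adjusted p = 0.0156), a call lost without VP replicate 2 or VP + OHT replicate 1 (adjusted p up to 0.13). Ctgf and Cyr61, secreted matricellular proteins and the classic YAP targets, did not pass the test. Ctgf had 17.1 and 11.2 RPKM in the VP + OHT libraries, against 17.4 and 13.8 RPKM in the VP libraries. Cyr61 had 47.4 and 43.8 RPKM in the VP + OHT libraries, against 44 and 47.3 RPKM in the VP libraries, levels at which changes may be understated. Their log2 changes were -0.16 and 0.00 (adjusted p = 0.579 and 0.999). Ankrd1, a muscle-type ankyrin repeat protein and also a target, had 1.66 and 1.08 RPKM in the VP + OHT libraries, against 2.02 and 1.74 RPKM in the VP libraries (log2 change -0.29 ± 0.12 (SE), adjusted p = 0.173), and its VP + OHT libraries lay further apart than the gap between the groups. In VP against DMSO, 18 of the 28 targets were lower and 5 higher, where 39% of all genes were lower and 28.8% higher. Ankrd1 had 110 and 80 reads in the VP libraries, against 22 and 36 reads in the DMSO libraries. Cyr61 had 2751 and 2504 reads in VP against 2696 and 2756 in DMSO, and Ctgf 1291 and 868 against 1452 and 1318.

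Of 27 members of a combined Hippo and Myc network list, 2 rose (7.41%, against 5.36% of all genes) and 0 fell by limma. At an unadjusted p under 0.05, 7 were higher and 0 lower, and voom called 5 higher. Median-ratio scaling gave 1 rise. Mxi1, a Max partner that opposes Myc at E-boxes, had 4.37 and 4.15 RPKM in the VP + OHT libraries, against 2.51 and 2.38 RPKM in the VP libraries (log2 change 0.61 ± 0.07 (SE), adjusted p = 0.0016), a call kept in every leave-out fit. Mlxip, which encodes the glucose-sensing factor MondoA, had 4.71 and 4.51 RPKM in the VP + OHT libraries, against 3.42 and 3.52 RPKM in the VP libraries (log2 change 0.33 ± 0.07 (SE), adjusted p = 0.0204), lost when any 1 of the 4 verteporfin libraries was left out (adjusted p up to 0.136). Mxd4, another antagonist that pairs with Max, missed the threshold at 8.83 and 8.8 against 7.28 and 5.68 RPKM (log2 change 0.40, adjusted p = 0.0531), and Max had a log2 change of 0.08 (adjusted p = 0.569). Myc itself had 35.9 and 34.1 RPKM in the VP + OHT libraries, against 33.7 and 35.9 RPKM in the VP libraries (log2 change 0.01 ± 0.08 (SE), adjusted p = 0.965). In solvent it had 5.68 and 5 RPKM in the DMSO + OHT libraries, against 10.6 and 10.2 RPKM in the DMSO libraries, a log2 change of -0.85, and the response under verteporfin exceeded it by 0.86 ± 0.11 (SE, adjusted p = 0.00431, at most 0.0201 with 1 library left out). The VP levels correspond to 0.938 to 1.04 reads per base, in the range where changes may be understated, and reads of the endogenous gene and of the MycER transgene cannot be told apart. Genes that Myc is known to lower gave 1 rise and 0 falls among 16 (limma, 1 higher and 1 lower at an unadjusted p under 0.05, 1 and 0 by voom). The share of rises was 6.25%, close to the 5.36% over all genes, of which 0.564% fell. The member that rose was Txnip, an inhibitor of thioredoxin and of glucose uptake, at 6.79 and 6.49 against 5.07 and 4.82 RPKM (log2 change 0.36, adjusted p = 0.0307, up to 0.184 when any 1 of the 4 verteporfin libraries was left out). Cdkn1a, the cyclin-dependent kinase inhibitor p21, had 8.45 and 7.98 RPKM in the VP + OHT libraries, against 9.75 and 8.62 RPKM in the VP libraries (log2 change -0.14 ± 0.09 (SE), adjusted p = 0.332).

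Stress and structural programmes gave 0 calls by limma in 7 lists. Of 28 NF-kB and inflammatory genes, 4 were higher and 1 lower at an unadjusted p under 0.05, and voom called 1 higher. Of 22 ATF4 targets 3 were higher at that unadjusted p, of 20 genes of the unfolded protein response 1 was higher, and of 24 extracellular matrix genes 1 was higher and 1 lower, with 0 calls by voom in each. Of 24 immediate early genes, 22 NRF2 targets and 23 SRF-MRTF and actin genes, 0 were past the unadjusted threshold and 0 were called by voom. Hmox1, the heme oxygenase and a marker of NRF2 activity, had 54.9 and 54.7 RPKM in the VP + OHT libraries, against 51.3 and 58.9 RPKM in the VP libraries, and its 1.58 and 1.58 against 1.58 and 1.54 reads per base lay at the upper limit. Several other genes of these lists stood at like levels. The chemokine gene Cxcl1 had 59 and 60.6 RPKM in the VP + OHT libraries, against 54.2 and 63.9 RPKM in the VP libraries. Atf4, the stress transcription factor, had 47 and 47 RPKM in the VP + OHT libraries, against 43.6 and 49.5 RPKM in the VP libraries. In cholesterol synthesis 1 of 23 rose (4.35%, against 5.36% of all genes) and 0 fell. At an unadjusted p under 0.05, 9 were higher and 0 lower, and voom called 3 higher. All 23 were higher without overlap of the groups, as were 51% of all genes. Their median log2 change was 0.22, beside 0.08 over all genes. Scaling to the reads in genes gave 0 rises and a median of 0.13, beside -0.0045 over all genes. The member that rose was Mvk, the mevalonate kinase, at 5.81 and 6.18 against 4.34 and 4.15 RPKM (log2 change 0.42, adjusted p = 0.0403). Its call was lost when any 1 of the 4 verteporfin libraries was left out.

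**Figure D4:**
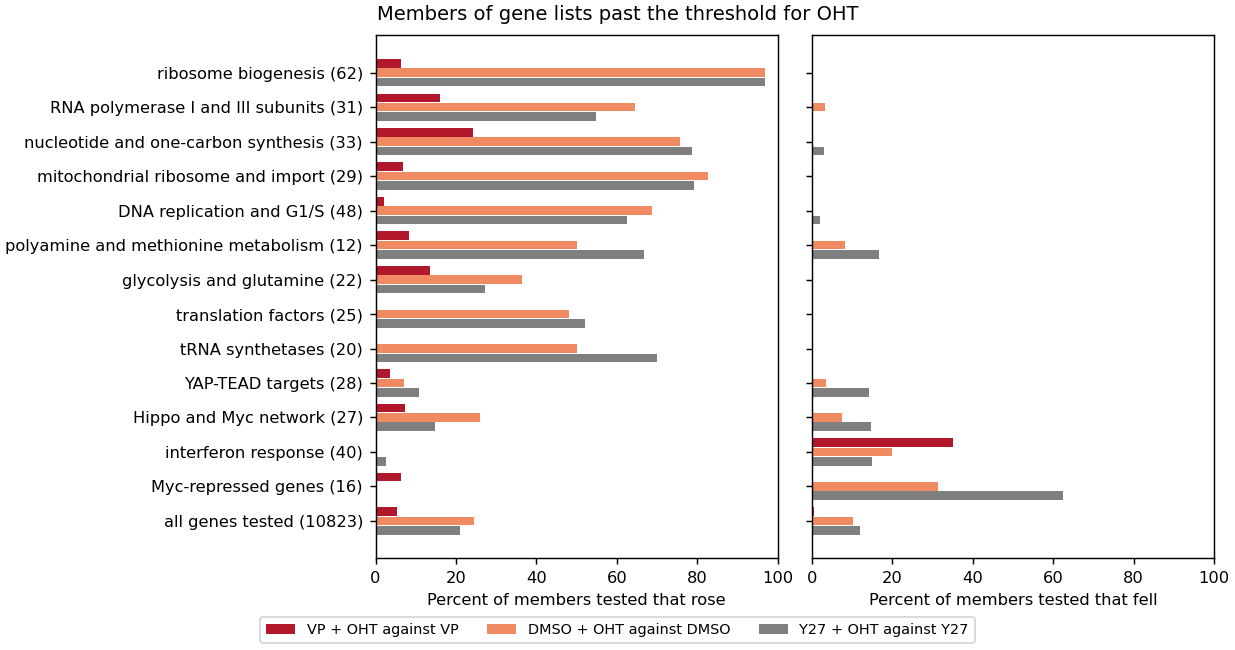
Percent of the tested members of 13 gene lists, and of all genes tested, that rose (left panel) or fell (right panel) at an adjusted p under 0.05 with OHT under verteporfin, in DMSO and under Y27, with the number tested in brackets. Of 62 ribosome biogenesis genes 4 rose under verteporfin, and the bars of the other settings each stand for 60.

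The same genes were then set against the OHT response in DMSO. The 2 log2 changes share no library, but both come from 1 fit with 1 estimate of the spread. The calls of the 2 responses are therefore not independent. DMSO + OHT against DMSO called 3733 genes (34.5%), 2638 higher (24.4%) and 1095 lower (10.1%), in the same fit. Of the 580 genes that rose under verteporfin, 517 (89.1%) also rose in DMSO, and these were 19.6% of the rises in DMSO. Of the 61 genes that fell, 26 (42.6%) also fell in DMSO, or 2.37% of the falls there. The difference of the responses passed the test for 431 genes (3.98%), with 273 responses lower (2.52%) and 158 higher (1.46%) under verteporfin than in DMSO. In 416 of these 431 genes, 267 with the lower and 149 with the higher response, the change was called in DMSO and was smaller in size under verteporfin. Scaling to the reads in genes gave 464 lower and 204 higher. Leaving out VP replicate 2 gave 127 calls, VP + OHT replicate 1 gave 163, DMSO replicate 2 gave 202 and VP + OHT replicate 2 gave 254, and with no filter on low values there were 10.

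Among the lists, ribosome biogenesis held the most members with a differing response. In ribosome biogenesis the median log2 change was 0.17 under verteporfin and 0.61 in DMSO, and 28 of 62 members had a lower response under verteporfin by the test, with 0 higher, against 2.52% lower over all genes. That count was 0 with no filter on low values and 6 in the fit lacking VP replicate 2, 11 in that lacking VP + OHT replicate 1, and 13 in that lacking DMSO replicate 2. It was 15 without VP + OHT replicate 2, as also without DMSO + OHT replicate 1. The median difference lay between -0.495 and -0.348 in all 8 such fits. Lower responses were called for 11 of 48 DNA replication and G1/S genes. Leaving out VP replicate 2 or DMSO replicate 2 gave 3 such calls, leaving out VP replicate 1 gave 5, and leaving out either VP + OHT library or DMSO + OHT replicate 1 gave 6. For nucleotide and one-carbon genes 9 of 33 were called lower, 4 with VP replicate 2 or VP + OHT replicate 1 left out. With no filter both lists had 0 calls. The other growth lists varied, from 8 of 31 RNA polymerase I and III subunits and 3 of 29 genes of the mitochondrial ribosome and import to 1 of 25 translation factors, 1 of 20 tRNA synthetases and 1 of 12 polyamine and methionine genes. Of 22 glycolysis and glutamine genes, 22 chaperones and 21 mitosis genes, 0 were called. These last counts were not recomputed with libraries left out. Hmga1, an architectural chromatin protein, had 31.2 and 31.2 RPKM in the VP + OHT libraries, against 25.3 and 28.3 RPKM in the VP libraries. It had 30.0 and 23.8 RPKM in the DMSO + OHT libraries, against 8.49 and 6.76 RPKM in the DMSO libraries (difference -1.48 ± 0.17 (SE), adjusted p = 0.0029). Podxl, a sialomucin of the cell surface, had 0.934 and 1.16 RPKM in the VP + OHT libraries, against 0.73 and 0.704 RPKM in the VP libraries. It had 4.01 and 3.58 RPKM in the DMSO + OHT libraries, against 0.729 and 0.59 RPKM in the DMSO libraries (difference -1.28 ± 0.13 (SE), adjusted p = 0.00198). Mthfd1l, the mitochondrial formyltetrahydrofolate synthetase, had 15.6 and 16.4 RPKM in the VP + OHT libraries, against 13.2 and 13.4 RPKM in the VP libraries. It had 12 and 10.0 RPKM in the DMSO + OHT libraries, against 4 and 2.86 RPKM in the DMSO libraries (difference -1.19 ± 0.16 (SE), adjusted p = 0.0047). Ifi30, a lysosomal thiol reductase, had 1.1 and 1.2 RPKM in the VP + OHT libraries, against 0.859 and 1.25 RPKM in the VP libraries. It had 7.71 and 5.79 RPKM in the DMSO + OHT libraries, against 1.71 and 2.16 RPKM in the DMSO libraries (difference -1.32 ± 0.18 (SE), adjusted p = 0.00546). Hmga1 and Mthfd1l were thus already higher in VP than in DMSO, while Podxl and Ifi30 differed less between the 2. Hmga1 had 0.739 to 0.898 reads per base in the verteporfin libraries, at RPKM levels where changes may be understated. The part of this in its difference was not tested.

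Among genes whose response was higher under verteporfin, most fell in DMSO. Adamts4, a protease that cleaves aggrecan, had 8.13 and 6.93 RPKM in the VP + OHT libraries, against 6.55 and 5.61 RPKM in the VP libraries. It had 2.85 and 3.55 RPKM in the DMSO + OHT libraries, against 6.35 and 5.47 RPKM in the DMSO libraries (difference 0.99 ± 0.15 (SE), adjusted p = 0.00711). B3gnt9, a glycosyltransferase, had 2.62 and 2.58 RPKM in the VP + OHT libraries, against 3.4 and 3.08 RPKM in the VP libraries. It had 4.34 and 3.69 RPKM in the DMSO + OHT libraries, against 10.2 and 9.38 RPKM in the DMSO libraries (difference 0.87 ± 0.12 (SE), adjusted p = 0.00477). Tnfaip2, a TNF-induced protein, had 31.5 and 31.5 RPKM in the VP + OHT libraries, against 29.8 and 31.1 RPKM in the VP libraries. It had 5.33 and 4.07 RPKM in the DMSO + OHT libraries, against 9.89 and 8.32 RPKM in the DMSO libraries (difference 0.88 ± 0.15 (SE), adjusted p = 0.00991). Tnfaip2 had 0.813 to 0.92 reads per base in the verteporfin libraries, at RPKM levels where changes may be understated, which was not tested. None of these 3 passed the test under verteporfin alone, and all 3 differences held with any library left out. The remaining large differences were in Mir302b, Mir152, Mir1964 and Snord92, short genes with at most 6 reads in any of these 8 libraries.

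**Figure D5:**
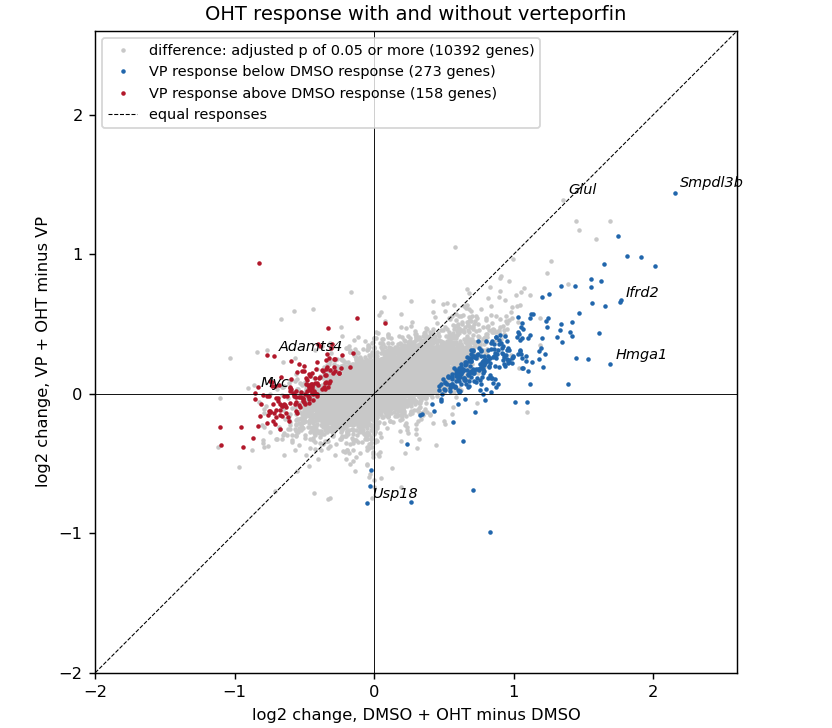
Each point is 1 of the 10823 genes, with its log2 change in DMSO + OHT against DMSO on the horizontal axis and in VP + OHT against VP on the vertical axis, and colours mark the 431 genes whose responses differed. The 273 blue points lie to the right and below the dashed line of equal responses, the 158 red points to the left and above it.

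To compare the sizes of both responses, genes were taken from the third setting, Y27 + OHT against Y27. There 2263 of the same genes rose (20.9%) and 1299 fell (12%). The log2 changes in that setting share no library with either response. The filter on low values and the estimate of spread in that fit did draw on the verteporfin libraries. Over the 2263 genes the median log2 change was 0.19 under verteporfin and 0.39 in DMSO, beside medians of 0.08 and 0.06 over all genes. Of these genes 478 (21.1%) were called higher under verteporfin and 1854 (81.9%) in DMSO, and 96.7% and 98.3% lay above zero. After scaling to the reads in genes the medians were 0.10 and 0.30. Over the 1299 genes that fell with Y27 the medians were -0.015 under verteporfin and -0.21 in DMSO, or -0.10 and -0.29 after that scaling. By expression level, the medians of the rises were 0.21 and 0.42 at 2 to 5 RPKM (439 genes) and 0.20 and 0.39 at 5 to 20 RPKM (1458 genes). They were 0.16 and 0.34 at 20 RPKM or more (190 genes). The medians of the falls at the same levels were -0.039 and -0.31 (296 genes), -0.0025 and -0.18 (765 genes), and 0.013 and -0.098 (66 genes). The part of the limit on reads per base in these sizes was not tested. These medians are descriptions with no test.

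The response under verteporfin also differed from that under the ROCK inhibitor, by the test for 932 genes (8.61%), 569 lower (5.26%) and 363 higher (3.35%). Leaving out VP + OHT replicate 1 gave 374 calls, VP + OHT replicate 2 gave 412, VP replicate 2 gave 427 and Y27 + OHT replicate 2 gave 463. Ribosome biogenesis again led the lower responses, with 52 of 62 members (39 to 54 with 1 library left out), followed by 19 of 33 nucleotide and one-carbon genes (16 to 19). For DNA replication and G1/S genes the count was 12 of 48, which became 6 with VP + OHT replicate 2 left out, 7 with VP + OHT replicate 1 or Y27 + OHT replicate 1 left out, and 3 with no filter. Rrp12, a ribosome export factor, had 16.3 and 16.8 RPKM in the VP + OHT libraries, against 14.2 and 14.6 RPKM in the VP libraries. It had 7.44 and 6.88 RPKM in the Y27 + OHT libraries, against 1.08 and 1.03 RPKM in the Y27 libraries (difference -1.80 ± 0.09 (SE), adjusted p = 2.05e-05). Tfrc, the transferrin receptor, had 10.3 and 10.4 RPKM in the VP + OHT libraries, against 7.06 and 7.74 RPKM in the VP libraries. It had 17.1 and 18.6 RPKM in the Y27 + OHT libraries, against 3.77 and 3.72 RPKM in the Y27 libraries (difference -1.55 ± 0.09 (SE), adjusted p = 2.49e-05). The other large negative differences were in Ifrd2, a ribosome-binding repressor of translation (-1.63), Pdxp, the pyridoxal phosphatase (-1.51), and Fam195a (-1.59), all of which held with any library left out. Genes that Myc is known to lower went the other way, with higher responses under verteporfin for 8 of 16 members and lower for 0. That count was 4 without VP replicate 2, VP + OHT replicate 2 or Y27 + OHT replicate 2, and 5 without VP + OHT replicate 1. Arntl, the clock factor BMAL1, had 2.5 and 2.66 RPKM in the VP + OHT libraries, against 3.22 and 2.69 RPKM in the VP libraries. It had 0.38 and 0.282 RPKM in the Y27 + OHT libraries, against 1.7 and 1.71 RPKM in the Y27 libraries (difference 0.88 ± 0.13 (SE), adjusted p = 0.00328). Mmp28, a matrix metalloprotease, had a difference of 0.98 (adjusted p = 0.0182, up to 0.0773 without VP replicate 2, and also lost without either VP + OHT library or Y27 + OHT replicate 2). Scaling to the reads in genes moved the split to 821 lower and 171 higher.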

How the data were processed

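RNA-seq libraries were made from total RNA with a TruSeq v2 kit, without poly-T selection and without marking strand. Per the labels and the methods, the authors aligned reads to mm9 with TopHat2 2.0.8, counted them with featureCounts 1.4.5-p1 and deposited RPKM values. Their DESeq2 fold changes and p-values were not used. Their mean normalized counts served only in restoring decimal signs, where levels that did not match their digits were discarded.

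Values of 1 or more had lost their decimal sign in the deposited table. The 10-fold level of each gene was restored from exon length, mapped reads and whole read counts. Of 21671 entries, 21520 were kept and 151 left out (69 undecided, 27 date names, 49 without length, 6 without a solution). With the level of 2008 anchored genes hidden, 1992 were worked out alike.

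Genes with mean RPKM of at least 0.5 were tested with limma 3.58.1 (R 4.3.3, trend) on log2(RPKM + 1), in the 8 libraries of the VP and DMSO groups. Y27 responses came from a fit of the Y27 and VP groups together. The members and lists were chosen with earlier results of these data known. Named genes were the 12 largest rises and falls, up to 4 called and 2 abundant members per list, fixed genes of the Myc and YAP pathways, and the 6 largest differences in each direction between responses. Replicates differed beyond sampling noise.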

Additional observations from a re-analysis of the deposited data

Results flagged for a closer look

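The OHT response under verteporfin differed from that in DMSO for 431 genes, by a limma test of the difference itself, and each gene here was picked as 1 of the 6 largest differences in its direction. Responses were higher under verteporfin by 1.76 for Mir302b, 1.05 for Mir152, 0.99 for Adamts4, 0.88 for Tnfaip2, 0.87 for B3gnt9 and 0.86 for Myc on the log2 scale. The difference was -1.82 for Mir1964, -1.48 for Hmga1, -1.4 for Snord92, -1.32 for Ifi30, -1.28 for Podxl and -1.19 for Mthfd1l. Those of Mir302b and Mir1964 lost the call when single libraries were left out, with adjusted p up to 0.0704 and 0.110.

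Against Y27 the same test of the difference passed for 932 genes. Responses were higher under verteporfin by 1.84 for Mir302b, 1.4 for Mir1931, 1.10 for Snord11, 1.02 for Mir1945, 0.98 for Mmp28 and 0.88 for Arntl. The difference was -1.83 for Mir1964, -1.80 for Rrp12, -1.63 for Ifrd2, -1.59 for Fam195a, -1.55 for Tfrc and -1.51 for Pdxp. Calls of Snord11, Mir1945, Mir1964 and Mmp28 were lost when single libraries were left out, with adjusted p up to 0.0768, 0.125, 0.0673 and 0.0773. The short genes among these rest on few reads, such as 2 and 2 reads in VP + OHT against 1 and 0 in VP for Mir1945.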

How the results depend on the processing

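Counts of called genes and the split between rises and falls both moved with the settings. For OHT under verteporfin, 76% of genes lay above zero in the main fit. That share was 48.3% after scaling to the reads in genes and 48.4% after quantile normalization. For OHT under verteporfin, 641 calls became 124 with no filter on low values, 404 after median-ratio scaling, 391 after scaling to the reads in genes, 1215 in the 4 VP and VP + OHT libraries alone and 1011 with voom on whole reads, the last chosen after seeing the data. They were 94 to 880 with 1 library left out. The 431 differences from DMSO became 10 with no filter, 996 after quantile normalization, 668 after scaling to the reads in genes and 682 with voom (127 to 538 with 1 library left out), these last scaling and voom fits also chosen after seeing the data. The 932 differences from Y27 became 462 with no filter (374 to 887 with 1 library left out). Causes were not tested. All 58 named called genes kept their direction under every setting that tested them, while 19 of 58 stayed called with no filter. These genes were picked as called in the same data, so their kept direction is no test. Many of the calls were lost when 1 verteporfin library was left out. With the replicate number as a block the counts were 820, 572 and 715. Deviations of same-numbered VP and VP + OHT libraries correlated at 0.0907 over genes, those of DMSO and DMSO + OHT at 0.291 and those of Y27 and Y27 + OHT at -0.166. Since the groups share only 2 numbers and no label ties them to a batch, the numbers were not taken to pair the samples.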

Other observations

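Ube2l6 and Uba7 are in no list and were picked after their values were seen, as was their partner Isg15 of the interferon list. Ube2l6, the conjugating enzyme for the ubiquitin-like ISG15, had 6.7 and 7.1 RPKM in the VP + OHT libraries, against 9.11 and 10.3 RPKM in the VP libraries (log2 change -0.44 ± 0.08 (SE), adjusted p = 0.0127). Uba7, its activating enzyme, had 3.54 and 3.09 RPKM in the VP + OHT libraries, against 4.38 and 5.6 RPKM in the VP libraries (log2 change -0.47 ± 0.12 (SE), adjusted p = 0.0405). Isg15 did not pass the test, with 11 and 10.1 RPKM in the VP + OHT libraries, against 11.3 and 15 RPKM in the VP libraries (log2 change -0.28 ± 0.11 (SE), adjusted p = 0.165).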
